A study of Mus musculus with 6 samples.

Results

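The 6 genes described here, Pcdhga7, Pcdhga8, Pcdhga9, Pcdhga10, Pcdhga11 and Pcdhga12, are the downstream members of the gamma-A protocadherins. They were picked by symbol, with earlier results of these data known, and all 6 were found among the 54532 gene identifiers of the count files. RNA of whole brains was sequenced at postnatal day 14, with 1 library per mouse, from 3 control mice and 3 Mphosph8 mutant mice on a C57BL/6J background. Per the labels the controls were Mphosph8fl/+ Nestin-Cre+, and the mutants, labelled Mphosph8∆n, were Mphosph8fl/fl Nestin-Cre+. Both groups thus carried the transgene and at least 1 floxed allele, and the controls kept 1 intact allele. Cre removes 1 exon of Mphosph8. The Nestin promoter drives it in neural progenitors and their progeny, so cells of other origin in the brain, such as microglia and vessel cells, keep the gene. The paper's own wording names only Nestin-Cre+ for them.

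The comparison asks what the loss of MPP8 does to these genes. MPP8, the product of Mphosph8, binds trimethylated lysine 9 of histone H3 and belongs to the HUSH complex, which represses transcription. Gamma protocadherins are adhesion proteins of the neuronal surface that bind the same isoform on another cell. Each gene has its own promoter and 1 large variable exon, which encodes the ectodomain, the membrane span and the first part of the cytoplasmic tail, and the variable exon is spliced to constant exons that all gamma genes use. A single neuron expresses only a few of the alternate members, a choice linked to DNA methylation and CTCF at the promoters, and the resulting surface code is known for dendrite self-avoidance, neuronal survival and synapse formation.

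The 6 genes lie on the plus strand of chromosome 18 (GRCm38) and alternate with gamma-B genes. Their first, variable exons span 37714764 to 37717374 for Pcdhga7 (ENSMUSG00000103472), 37725706 to 37728316 for Pcdhga8 (ENSMUSG00000103897), and 37736936 to 37739543 for Pcdhga9 (ENSMUSG00000102440). Those of Pcdhga10 (ENSMUSG00000102222), Pcdhga11 (ENSMUSG00000102742) and Pcdhga12 (ENSMUSG00000102428) span 37746993 to 37749605, 37755731 to 37758367 and 37765580 to 37768540. All 6 continue into the same 3 exons, of 59, 89 and 1971 bases, the last of which starts at 37839903, and these exons are annotated in all 22 gamma genes. Genes whose exonic bases are all shared on 1 strand hardly received counts in these files, so the counts of each member are taken to come from its own exonic bases, which numbered 2503 for Pcdhga8 to 4545 for Pcdhga12. The variable exons were alike but far from identical. Over the 15 pairs, nucleotide identity ran from 65% for Pcdhga9 and Pcdhga12 to 78.1% for Pcdhga8 and Pcdhga9, with a median of 69.7%. Words of 50 bases, the length of a read, were therefore mostly unique to 1 gene. The share of a member's words that also occur elsewhere was 0% for Pcdhga7 and Pcdhga11, and it was highest for Pcdhga8 at 4.44%, mostly with Pcdhga9.

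The libraries held 12956880 to 15223424 counts, and values are given as CPM, the usual depth-scaled count with TMM factors. Mphosph8 itself was at 55.8, 48.6 and 70.7 CPM in the controls and at 33.1, 27.2 and 26.5 CPM in the mutants, and every mutant library was below every control library. A pair of libraries stood apart. Control replicate 3 had 3641 counts of 4 Y-linked genes, against 0 or 1 in the others, and 27 counts of Xist, against 11130 to 17697. By these counts it came from a male and all other libraries from females, so sex was not balanced between the groups. The labels give no sex, whereas the paper describes its experimental mice as littermates matched for age and sex. Mutant replicate 1 lay farthest out on the first principal component of all genes. The members' fold changes are given without mutant replicate 1 as well, and without control replicate 3 the same 4 members were called.

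Of the 6 genes, 4 rose in mutant brains and the other two did not pass the test. To be called, a gene needed an adjusted p under 0.05 in edgeR's quasi-likelihood test and more than a 2-fold change. Of the 16731 genes tested 0.353% were called higher and 0.00598% lower. Called higher were Pcdhga7, Pcdhga8, Pcdhga10 and Pcdhga12, and no member was called lower or had an unadjusted p under 0.05 in that direction. DESeq2 and limma-voom called the same 4 higher and 0 lower. The median log2 fold change of the 6 was 1.21, against -0.01 over all genes tested. In 5 of the 6, every mutant library was above every control library, a pattern found in 6.23% of genes tested, and in 0 every mutant was below every control, as in 5.42% of genes tested. Since whole brains were sequenced, more cells that express a gene and more RNA per cell cannot be told apart.

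Pcdhga12, the last alternate gene of the gamma array before the C-type genes, had with Pcdhga7 the largest rises of the 6. It was at 12.4, 19.0 and 16.5 CPM in the controls and at 54.7, 38.9 and 44.9 CPM in the mutants. Even the lowest mutant library held more than 2 times the highest control. The log2 fold change was 1.53 ± 0.14 (SE), a fold of 2.89 with a 95% interval of 2.35 to 3.55, and the edgeR adjusted p was 4.91e-06. Without mutant replicate 1 the log2 fold change was 1.39, and the gene was still called. Without control replicate 1 the order of the pair turned, with log2 fold changes of 1.38 for Pcdhga12 and 1.41 for Pcdhga7.

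Pcdhga7, the first of the 6 along the chromosome, rose nearly as much. Its controls were at 10.8, 13.3 and 12.6 CPM, and its mutants were at 40.8, 30.5 and 32.4 CPM. The groups were well apart, with mutant replicate 1 the highest library. The log2 fold change was 1.5 ± 0.12 (SE), a fold of 2.82 with a 95% interval of 2.35 to 3.38 and edgeR gave it an adjusted p of 1.98e-06. With mutant replicate 1 left out the log2 fold change was 1.36.

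Pcdhga8 had the closest controls of the 6, at 8.58, 9.01 and 9.72 CPM, and its mutants were at 24.9, 21.5 and 19.6 CPM. The groups were again well apart. The log2 fold change was 1.27 ± 0.12 (SE), a fold of 2.41 (95% interval 2.01 to 2.89), and its adjusted p in edgeR was 8.44e-06. When mutant replicate 1 was left out it was 1.17 on the log2 scale.

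Pcdhga10 rose less and with more spread among the mutants. It was at 8.64, 9.89 and 10.7 CPM in the controls and at 27.2, 17.5 and 20.1 CPM in the mutants. The groups did not overlap, but mutant replicate 1 was well above the other mutants. The log2 fold change was 1.15 ± 0.15 (SE), a fold of 2.21 (95% interval 1.78 to 2.76), and edgeR gave an adjusted p of 0.000341. Leaving out mutant replicate 1 gave 0.95 with an adjusted p of 0.000259, which is below the 2-fold limit, so that 3 members were then called. In edgeR's test against a 1.5-fold change its adjusted p was 0.0731, and the other three members called passed.

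**Figure D1:**
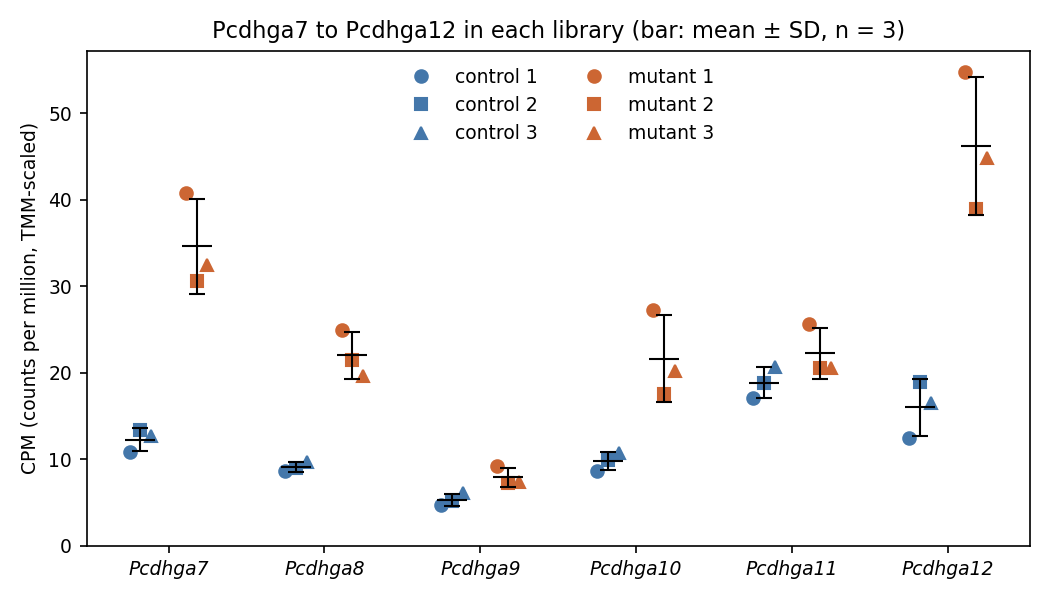
Level of each of the 6 genes in the 3 control (blue) and 3 mutant (orange) libraries, in CPM, with the mean and SD of each group as black bars and the replicate number as the symbol. The mutant points of Pcdhga7, Pcdhga8, Pcdhga10 and Pcdhga12 lie clear of the control points, those of Pcdhga9 lie slightly above them, and those of Pcdhga11, from 20.5 to 25.7 CPM, overlap the controls.

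The remaining members were Pcdhga9 and Pcdhga11, which per length had the lowest and the highest level in controls. Pcdhga9 was at 4.72, 5.13 and 6.07 CPM in the controls and at 9.20, 7.24 and 7.34 CPM in the mutants. Every mutant library was above every control library, by a small margin. The log2 fold change was 0.57 ± 0.17 (SE), a fold of 1.49 (95% interval 1.17 to 1.90). In edgeR this missed the threshold, with an adjusted p of 0.204 and an unadjusted p of 0.00279, and without mutant replicate 1 the log2 fold change was 0.46. With 231 counts over the controls this was the least deeply counted member.

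Pcdhga11 was at 17.1, 18.7 and 20.7 CPM in the controls and at 25.7, 20.5 and 20.5 CPM in the mutants. The groups overlapped, since both lower mutant libraries were just below control replicate 3. The log2 fold change was 0.24 ± 0.12 (SE), a fold of 1.18 (95% interval 0.994 to 1.40), with an edgeR adjusted p of 0.792. Leaving out mutant replicate 1 lowered it to 0.12 on the log2 scale. Its 819 counts over the controls were the most of the 6, and its interval did not reach a 2-fold rise. The upper bound of its interval, 0.48 on the log2 scale, was below the lower bounds of the 4 genes called, which ran from 0.83 to 1.23. The upper bound of Pcdhga9, 0.92, was below those of Pcdhga7, Pcdhga8 and Pcdhga12 and above that of Pcdhga10. No test of the difference between members was made.

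The spread between libraries was larger than counting alone gives, with 1 exception. The coefficient of variation between libraries was 6.33% to 20.7% in the controls and 12.4% to 23.1% in the mutants, and the part that counting error would give was 4.06% to 11.4%. The exception was Pcdhga8 in the controls, at 6.33% against 8.70%. Mutant replicate 1 was the highest mutant library for every one of the 6 genes, and control replicate 1 was the lowest control library for every one of them.

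Summed over the 6 genes, the level was 62.3, 75.1 and 76.3 CPM in the controls and 182, 136 and 145 CPM in the mutants. The means were 71.2 ± 7.76 and 155 ± 24.6 CPM (SD, n = 3), 2.17 times the control level, and the groups did not overlap. On the log2 scale the ratio of the means was 1.12, and 0.98 without mutant replicate 1. The 4 genes called accounted for most of it, with 47.1 ± 5.77 CPM in controls and 124 ± 20.6 CPM in mutants. Pcdhga9 and Pcdhga11 together were at 24.1 ± 2.47 and 30.2 ± 4.07 CPM. These sums are given as a description, without a test.

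The make-up of the sum differed between the groups more than it varied within them. Pcdhga11 supplied 27.4%, 25.0% and 27.1% of the sum in the controls, the largest or the second largest share of the 6, and 14.1%, 15.1% and 14.2% in the mutants. Pcdhga12 supplied 20.0%, 25.3% and 21.7% in the controls and 30.0%, 28.5% and 31.0% in the mutants, where it was the largest. These shares are not corrected for length, and Pcdhga12 had the most own exonic bases of the 6, 4545. Pcdhga7 went from 17.2% ± 0.628 to 22.4% ± 0.0316 (SD, n = 3), and Pcdhga9 from 7.45% ± 0.574 to 5.14% ± 0.151. Pcdhga8 and Pcdhga10 kept shares that overlapped between the groups, at means of 12.8% and 13.7% in the controls and 14.3% and 13.9% in the mutants. A share can fall while the level of the gene does not, and Pcdhga11 had the larger mean CPM in mutants.

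**Figure D2:**
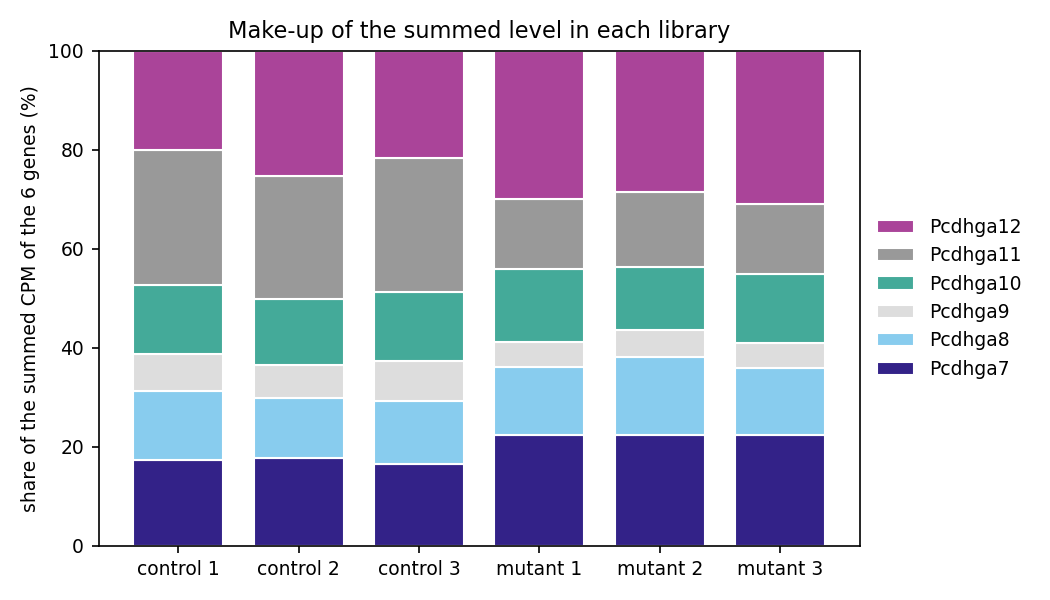
Share of the summed CPM of the 6 genes that each gene supplied, in percent, with 1 stacked column per library. The CPM were not corrected for length. The 3 mutant columns resemble each other, with Pcdhga11 (dark grey) at 14.1% to 15.1%, against 25.0% to 27.4% in the 3 control columns.

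Levels can be compared between the genes only per length, here as CPM per kilobase of own exonic bases. In the controls Pcdhga11 was highest, at 7.14 ± 0.676 (SD, n = 3), and its lowest library was above the highest library of any other member. Pcdhga7 at 3.96 ± 0.414, Pcdhga10 at 3.73 ± 0.402, Pcdhga8 at 3.64 ± 0.230 and Pcdhga12 at 3.52 ± 0.727 followed, and each of these overlapped its neighbours in that order. Pcdhga9 was lowest, at 1.53 ± 0.200, with no overlap with the next. In the mutants the order of the means was Pcdhga7 at 11.2 ± 1.76, Pcdhga12 at 10.2 ± 1.76, Pcdhga8 at 8.79 ± 1.09, Pcdhga11 at 8.43 ± 1.13 and Pcdhga10 at 8.27 ± 1.91. Each of these 5 overlapped the next, so Pcdhga11 no longer stood above the rest, and Pcdhga9 was again lowest and apart, at 2.28 ± 0.317. The order depends on the length used for Pcdhga12, whose own bases include a longer second transcript. Per kilobase of the variable exon alone, an alternative chosen after seeing the data, Pcdhga12 was at 5.40 ± 1.12 in controls and 15.6 ± 2.69 in mutants, second to Pcdhga11 in the former and highest in the latter.

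**Figure D3:**
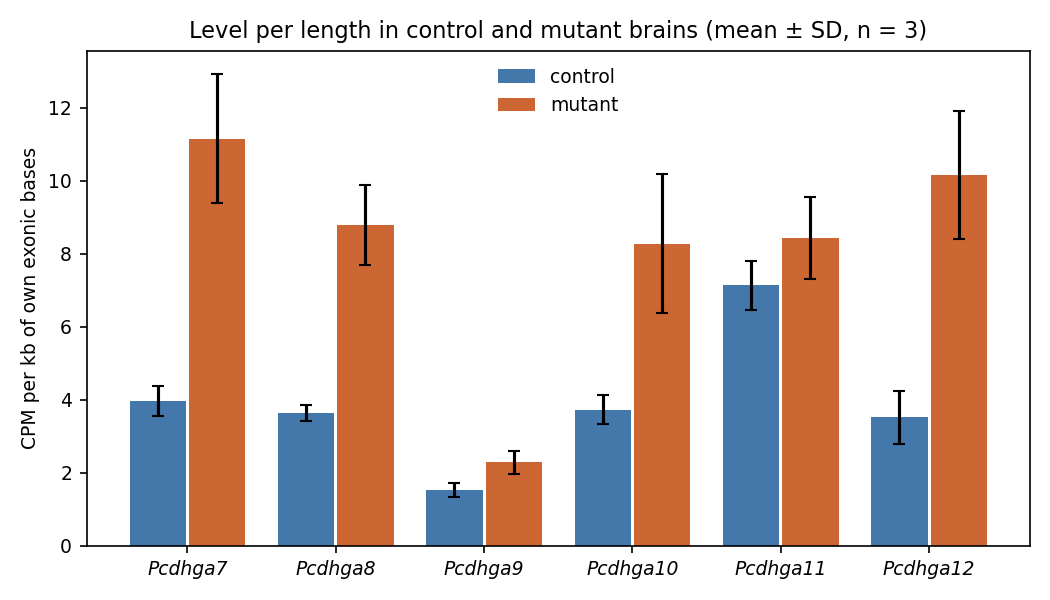
Mean level per kilobase of own exonic bases in control (blue) and mutant (orange) brains, with SD over 3 libraries. Pcdhga11 stands out in the controls at 7.14 and not in the mutants, and Pcdhga9 is lowest in both groups.

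The response did not follow the order of the genes along the chromosome. The 6 are the 9th to the 19th of the 22 gamma genes, counting the gamma-B genes between them. Read downstream, the log2 fold changes were 1.5 for Pcdhga7, 1.47 for Pcdhgb4, 1.27 for Pcdhga8, 0.89 for Pcdhgb5, 0.57 for Pcdhga9 and -0.19 for Pcdhgb6. They then were 1.15 for Pcdhga10, 0.30 for Pcdhgb7, 0.24 for Pcdhga11, 1.72 for Pcdhgb8 and 1.53 for Pcdhga12. Of the gamma-B genes among them, Pcdhgb4 and Pcdhgb8 were called, and the latter is annotated as a polymorphic pseudogene. The uncalled Pcdhga11 thus lay directly between Pcdhgb7, which was not called, and Pcdhgb8, which was. For these 5 gamma-B genes, 2.67% to 11.9% of the words occur elsewhere, more than for most of the gamma-A genes.

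**Figure D4:**
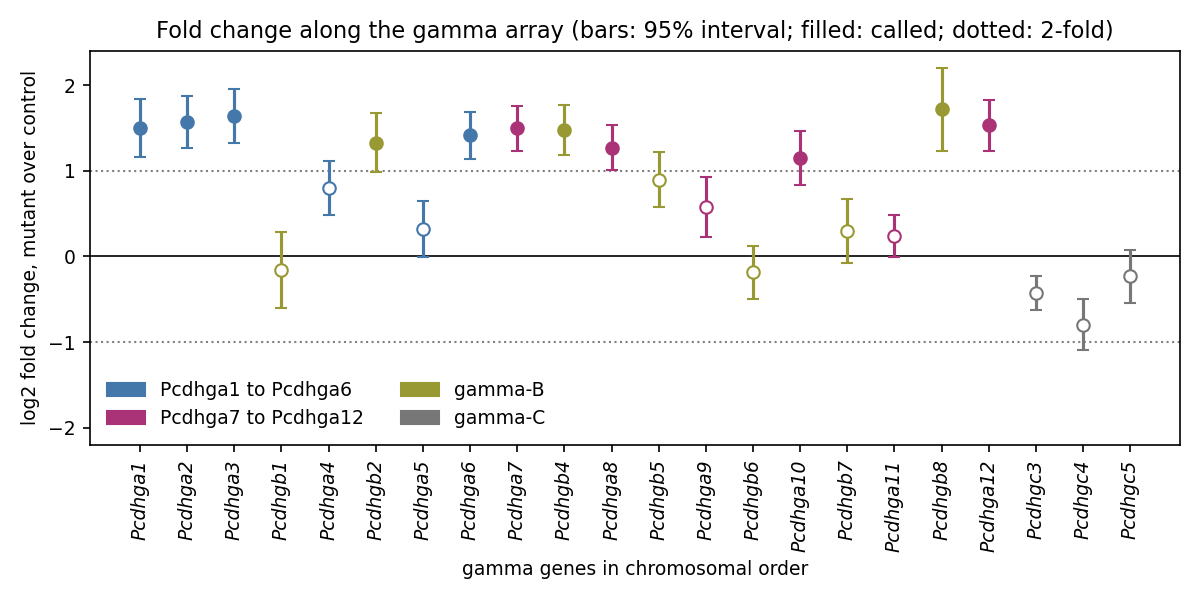
Log2 fold change, mutant over control, of the 22 gamma genes in chromosomal order, with 95% intervals from the edgeR fit of 3 against 3 libraries. Filled points are genes called, open points genes not called, and the dotted lines mark a 2-fold change. Pcdhga7 to Pcdhga12 (purple) run from 0.24 for Pcdhga11 to 1.53 for Pcdhga12.

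The first gamma-A genes, Pcdhga1 to Pcdhga6, gave similar values. Of these 6, 4 were called higher in edgeR, against 0.353% of all genes tested. Their median was 1.46, and they ran from 0.32 for Pcdhga5 to 1.64 for Pcdhga3. Of the 7 gamma-B genes, 3 were called higher (0.353% of all genes tested), with a median of 0.89 and values from -0.19 for Pcdhgb6 to 1.72 for Pcdhgb8. The C-type genes, the 3 at the end of the array, went the other way, from -0.80 for Pcdhgc4 to -0.23 for Pcdhgc5, and 0 were called in edgeR, DESeq2 or limma-voom. Of these 3, 2 were lower at an adjusted p under 0.05 with each tool and at an unadjusted p under 0.05 in edgeR, against 0.0956% of all genes at the adjusted p in edgeR. That share rests on 16 genes, a number that was 49 without mutant replicate 1 and 4 to 10 without another library. In the mutants Pcdhga7 to Pcdhga12 made up 30.7% ± 0.493 of all gamma CPM, against 18.9% ± 0.640 in the controls (SD, n = 3), with no overlap. The summed CPM of the C-type genes, part of that total, went from a mean of 216 in controls to 161 in mutants. Pcdhga1 to Pcdhga6 rose more in sum than these 6, 2.53 times against 2.17 times, and the gamma-B genes rose 1.66 times. No difference between these groups of genes was tested.

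Several features of the genes were set beside the response as a description. The variable exons had a GC content of 50.6% to 53.3%. The observed over expected number of CpG dinucleotides, the sites of DNA methylation, was 0.394 for Pcdhga7, 0.533 for Pcdhga8, 0.455 for Pcdhga9, 0.609 for Pcdhga10, 0.637 for Pcdhga11 and 0.732 for Pcdhga12. It was thus lowest and highest in the genes with the largest rises, and the uncalled Pcdhga9 and Pcdhga11 lay within the range of the genes called. Pcdhga8 and Pcdhga9 had the most similar variable exons of all pairs, and 1 was called and the other was not. Over 6 genes this is a description only.

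Annotated antisense genes overlapped 5 of the 6 genes. Gm26672 (ENSMUSG00000097330, minus strand, 37746559 to 37768242), a noncoding transcript, covers with its exons 100% of the own bases of Pcdhga10, 52.4% of those of Pcdhga11 and 9.28% of those of Pcdhga12. It had 59, 55 and 62 counts in the controls and 116, 117 and 126 in the mutants. It was called higher, at 1.16 ± 0.15 (SE) on the log2 scale (adjusted p in edgeR 0.000332). Pcdhga10, opposite it over its whole length, had 130, 135 and 159 counts in the controls and 340, 235 and 277 in the mutants. The counting is not stated to use strand, and although genes that lie opposite others did receive counts in these files, reads of Pcdhga10 and Gm26672 may not be fully told apart. Antisense exons thus lay opposite all 4 members called and 1 of the 2 not called, Pcdhga11, and Pcdhga9 had none. Their part in the members' values was not tested. The other antisense gene, Gm37165, lies opposite 17.3% of Pcdhga7 and 16.6% of Pcdhga8 and had 1 to 8 counts in a library, too few to be tested.

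The genes whose profile over the 6 libraries was most like that of the 6 members included clustered protocadherins and other genes. The profile was the mean of the members' log2 CPM, centred over the libraries, and likeness was the root-mean-square difference from it on the log2 scale, with the genotype difference included. Pcdhgb5 was nearest of all other genes tested, at 0.0823, followed by Pcdhb17 at 0.107, and Pcdhb3 had rank 4 at 0.120. Ranks 3 and 5 went to Gm16702 and Gm26672, which are not clustered protocadherins. Pcdhgb5 is the gene between Pcdhga8 and Pcdhga9. It averaged 5.92 ± 0.636 CPM over the controls and 11.02 ± 1.61 CPM over the mutants (SD, n = 3). Of genes that are not clustered protocadherins the nearest were the noncoding RNA Gm16702 on chromosome 17 at 0.117, Gm26672, which lies within the gamma array on the opposite strand, at 0.136, Nkapl on chromosome 13 at 0.152, Gm42769 on chromosome 5 at 0.160 and Gm43889 on chromosome 6 at 0.170. Among them Gm26672 was called, and Gm42769 passed the adjusted p alone, at 0.0125 with a log2 fold change of 0.83. Gm16702, Nkapl and Gm43889 had fewer than 4 CPM in every library and edgeR adjusted p-values of 0.194, 0.179 and 0.410.

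RNA for the proteins that gamma protocadherins meet or are cut by showed no change that passed the test. The 14 genes examined included the sheddase gene Adam10, the gamma-secretase genes Psen2, Ncstn and Aph1a, the kinase genes Ptk2 and Ptk2b, and the synaptic adhesion genes Nlgn1 and Nlgn2. In edgeR 0 of 14 rose or fell at an adjusted p under 0.05 (background 0.532% higher and 0.0956% lower), 0 had an unadjusted p under 0.05, and DESeq2 and limma-voom also gave 0. Their log2 fold changes ran from -0.17 to 0.15. The smallest p belonged to Nlgn1, which encodes a postsynaptic partner of neurexins. Its controls averaged 74.1 ± 4.32 CPM and its mutants 82.5 ± 12.8 CPM (SD, n = 3), and its adjusted p in edgeR was 0.897.

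Genes for known regulators of protocadherin promoters were counted in the same way. The 14 listed included Ctcf, the cohesin genes Rad21, Smc1a, Smc3, Stag1 and Stag2 with Nipbl and Wapl, the silencer Smchd1, the DNA methyltransferase genes Dnmt1, Dnmt3a and Dnmt3b, and Setdb1. In edgeR 0 of 14 passed an adjusted p of 0.05 (background 0.532% higher and 0.0956% lower), 0 had an unadjusted p under 0.05, and DESeq2 and limma-voom gave 0 too, with a median log2 fold change of 0.02.

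Markers of the cell types in the tissue were set beside the rise. The 10 neuron markers check the tissue and mark a cell type known to express these genes. They summed to 5186 to 5442 CPM in controls and 5184 to 5416 CPM in mutants, with none at 0. Of the 10, 0 passed an adjusted p of 0.05 in edgeR, DESeq2 or limma-voom (1 had an unadjusted p under 0.05 in edgeR). The 8 oligodendrocyte markers all had a negative log2 fold change, 2 fell at an edgeR adjusted p under 0.05 (background 0.0956% lower), 8 had an unadjusted p under 0.05, and 5 passed in DESeq2 and 2 in limma-voom. In 6 of the 8 every mutant library was below every control library, against 5.42% of genes tested. The sum of the 8 was 21576 to 25839 CPM in controls and 17129 to 19850 CPM in mutants, without overlap. The 2 that fell, named after their values were seen, were Mog and Cldn11, which encode myelin and tight junction proteins, at -0.49 each. The sum of the 6 choroid plexus and ependymal markers was 1433 to 1732 CPM in controls and 1067 to 1274 CPM in mutants. These sums again did not overlap, but 3 of the 6 markers had a positive log2 fold change and 3 a negative, with a median of -0.07. In 1 of the 6 every mutant library was below every control library, as in 5.42% of genes tested. At an adjusted p of 0.05, 0 of the 6 passed in edgeR, 1 in DESeq2 and 1 in limma-voom. An unadjusted p under 0.05 in edgeR was found for 1. No marker of either list was at 0, and the part of these cells in the values of the 6 genes was not tested. Sums of the astrocyte, microglia and endothelial markers overlapped between the groups, and 0 of their 22 genes passed an adjusted p of 0.05 in edgeR, DESeq2 or limma-voom (2 had an unadjusted p under 0.05).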

How the data were processed

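RNA-seq of 3 control and 3 mutant mouse brains was used, with 1 brain per library. The p-values test the genotype difference against the spread between these brains, which edgeR estimates in part from other genes. Per the labels and the study's methods, the authors trimmed polyA-selected 50-base single reads with Trim Galore 0.5.0, removed ribosomal reads with Bowtie2 2.3.4.1, aligned the rest to GRCm38 with STAR and assigned them to Ensembl genes by featureCounts (Subread 1.6.2). The deposited values are raw counts. Whether counting used strand is not given in the sources used here. Of 752 genes whose exonic bases all belong to another gene on the same strand as well, 0.399% had at least 10 counts over the 6 libraries. The share was 27.5% of 454 genes wholly opposite another gene and 33.5% of genes with no overlap, so shared exons appear not to be counted. Libraries held 12956880 to 15223424 counts, which gives the members a counting error of 4.06% to 11.4% per library, and no pair of replicates was a repeat of 1 library.

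Gene symbols, exons and antisense genes came from GENCODE M21 (GRCm38), which matched 54495 of 54532 identifiers. Counts were filtered with filterByExpr, scaled with TMM factors and fitted by edgeR 4.0.16 (R 4.3.3) with genotype as the only term; adjusted p-values are Benjamini-Hochberg over 16731 genes. SE is the log2 fold change divided by the root of F, and intervals are 95%. The alternatives tried were DESeq2 1.42.0, limma-voom (limma 3.58.1), RLE size factors, other filters on low counts, each library left out in turn and a replicate block. A test against a 1.5-fold change was run as well.

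The 6 genes and all lists were chosen with earlier results of these data known. Named are the 6 genes, the extremes of each other gamma group, the gamma-B genes that lie between the 6, the gene with the smallest p of a list without calls (not reported here for the promoter regulators) and, by likeness, the 3 nearest clustered protocadherins and the 5 nearest other genes (log2 CPM with a prior count of 2).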

Additional observations from a re-analysis of the deposited data

How the results depend on the processing

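Of the 6 log2 fold changes, 5 kept their direction and their side of the threshold under all 12 alternatives, and 1 did not. The exception was Pcdhga10 without mutant replicate 1, at 0.95, where it missed the 2-fold limit although its adjusted p was 0.000259 in edgeR; with single libraries left out it ran from 0.95 to 1.27. The number of members called was 3 to 4 under 15 alternatives, with 3 without mutant replicate 1 and in the test against a 1.5-fold change. Over their alternatives Pcdhga9 ran from 0.46 to 0.69 (adjusted p 0.0903 to 0.625) and Pcdhga11 from 0.12 to 0.31, and neither was called. The number of all genes called was 59 higher and 1 lower, and 85 and 11 without a filter on low counts, 31 and 0 in the test against a 1.5-fold change, and 45 to 62 higher and 0 to 5 lower with single libraries left out. Deviations of libraries with 1 number were hardly correlated (0.10, -0.05 and 0.08), so the numbers were not taken to pair brains; with the replicate block 4 members were called, Pcdhga10 was at 1.13 and the calls were 60 higher and 2 lower over all genes. The length used for levels per kilobase moved the values of Pcdhga7, Pcdhga9 and Pcdhga12. Depth limits Pcdhga9 most, with 231 counts over the controls.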
